A study of Mus musculus with 29 samples.

Results

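DNA methylation was examined in lung across 10 genes of T cell costimulation and the immune checkpoints, namely Cd28, Icos, Ctla4, Pdcd1, Lag3, Havcr2, Tigit, Cd86, Cd274 and Pdcd1lg2. The members were all windows that the table of gene windows names for one of these genes, which gave 59 of 260686 windows. Cd86 had 12 windows, Pdcd1lg2 had 11, Cd28 had 10, Havcr2 and Cd274 had 5 each, Ctla4 and Icos had 4 each, Pdcd1 and Lag3 had 3 each and Tigit had 2. Windows are numbered from the 5′ to the 3′ end of their gene.

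The 29 whole-genome enzymatic methyl-sequencing (WGMS) libraries came from lung tissue of BALB/c mice, described by the series as female offspring of 13 weeks. Dams were given saline (Sham) or fine particulate matter, PM2.5 (PM), by the nose before mating, through gestation and until weaning. Offspring received either ovalbumin (OVA), an egg protein used with an adjuvant to induce allergic airways disease (AAD), or a control that the labels call PBS and the methods call saline. The numbers of libraries were 7 for Sham, 7 for Sham-OVA, 7 for PM and 8 for PM-OVA. The PM offspring were themselves never given the particles. The labels do not tie libraries to litters, so siblings may be among the replicates. The tissue was whole lung, in which a changed mix of cells and changed methylation within cells cannot be told apart.

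A T cell is activated by its antigen receptor together with a costimulatory signal, which CD28 receives from CD80 and CD86 on antigen-presenting cells. ICOS is a related receptor that appears after activation and helps T cells that drive allergic and antibody responses. CTLA-4 competes for the CD28 ligands, whereas PD-1 (Pdcd1), LAG-3, TIM-3 (Havcr2) and TIGIT restrain activated T cells, and PD-L1 (Cd274) and PD-L2 (Pdcd1lg2) are the ligands of PD-1. Methylation of CpG dinucleotides near the start of such genes commonly differs between cell types that use the gene and those that do not.

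Each value is the percentage of methylated CpG calls in a window (%DNAm). A member window had a median length of 5511 bp (range 1858 to 11617 bp) and a median of 50 CpG dinucleotides, so a single CpG cannot be read from it. Per the methods the libraries were sequenced to high coverage, but the table holds no coverage per window, so the reads behind a single value are unknown. In all, 43 windows held exonic bases of their gene and 16 did not. Another gene overlapped 11 member windows, among them all 5 of Cd274, and CpGs in such an overlap lie in both annotations.

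The stretches below show the CpGs, in capitals, within windows that carried the larger differences or stood apart in level. All are on GRCm38, written 5′ to 3′ on the strand of the gene. The Cd86 stretch (chr16:36666617-36666816, minus strand) lies upstream of the annotated start in window 1. The Pdcd1lg2 stretch (chr19:29420457-29420656, plus strand) lies in an intron in window 2. Each is the 200-base stretch of its window with the most CpGs and without untranslated bases. The Ctla4 promoter (chr1:60908775-60909024, plus strand) and the Pdcd1 promoter (chr1:94052554-94052803, minus strand) are the 250 bases before the RefSeq start. The Ctla4 promoter spans the edge of windows 3 and 4 and that of Pdcd1 lies in window 1.
Cd86 window 1: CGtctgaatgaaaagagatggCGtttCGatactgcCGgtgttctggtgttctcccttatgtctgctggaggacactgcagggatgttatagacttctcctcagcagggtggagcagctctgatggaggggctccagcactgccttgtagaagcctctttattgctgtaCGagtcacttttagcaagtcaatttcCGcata
Pdcd1lg2 window 2: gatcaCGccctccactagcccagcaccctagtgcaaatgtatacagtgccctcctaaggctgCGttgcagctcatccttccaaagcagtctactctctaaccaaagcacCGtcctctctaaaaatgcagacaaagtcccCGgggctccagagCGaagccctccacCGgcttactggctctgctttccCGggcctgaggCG
Ctla4 promoter: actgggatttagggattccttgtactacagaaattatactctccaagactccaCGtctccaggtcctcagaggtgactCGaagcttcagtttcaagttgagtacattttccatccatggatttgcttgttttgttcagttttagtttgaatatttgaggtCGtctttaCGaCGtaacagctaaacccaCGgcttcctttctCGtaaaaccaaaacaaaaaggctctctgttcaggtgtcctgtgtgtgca
Pdcd1 promoter: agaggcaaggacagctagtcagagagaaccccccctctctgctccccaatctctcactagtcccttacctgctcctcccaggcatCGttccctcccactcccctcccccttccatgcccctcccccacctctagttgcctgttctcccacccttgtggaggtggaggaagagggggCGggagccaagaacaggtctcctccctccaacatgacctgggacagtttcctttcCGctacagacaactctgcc
The Cd86 stretch held 6 CpGs, the Pdcd1lg2 stretch 8, the Ctla4 promoter 7 and the Pdcd1 promoter 3.

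Windows 1 and 3 of Lag3 were the 2 member windows with a mean under 50% in Sham, and a stretch of each is shown for that reason. The stretch from window 1 (chr6:124910088-124910287, minus strand) has 184 of its 200 bases in exons, and that from window 3 (chr6:124905261-124905460, minus strand) is wholly exonic.
Lag3 window 1: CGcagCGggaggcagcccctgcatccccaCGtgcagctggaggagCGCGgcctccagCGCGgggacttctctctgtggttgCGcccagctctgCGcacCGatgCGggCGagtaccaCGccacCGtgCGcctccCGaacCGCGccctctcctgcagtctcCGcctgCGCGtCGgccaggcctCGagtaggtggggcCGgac
Lag3 window 3: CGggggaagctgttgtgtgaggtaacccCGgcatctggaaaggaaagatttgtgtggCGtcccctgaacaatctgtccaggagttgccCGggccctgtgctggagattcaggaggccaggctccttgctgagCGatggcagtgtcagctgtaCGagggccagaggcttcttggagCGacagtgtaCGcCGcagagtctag
These stretches held 24 and 9 CpGs. These windows had 26.9 and 19.3 CpGs per kb, against a median of 9.25 over the members and 30.8 in Cd28 window 3.

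One library stood apart from its group. Sham replicate 1 had a value in 1224 windows of the Y chromosome, against 29 to 46 in the other libraries. It was kept, and member counts without it are given with each comparison. The member genes lie on chromosomes 1, 6, 11, 16 and 19. Over all 406 pairs of libraries r was between 0.983 and 0.997, and 0 pairs were identical.

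Unchallenged lung was highly methylated across the members. In Sham, 49 of the 59 windows had a mean of at least 70% and 2 were under 50%, with window means from 26.7 to 89.7%. Averaged over the windows of a gene, Tigit was highest (values after ± are SDs over libraries) at 84.4 ± 1.32% (n = 7), followed by Pdcd1lg2 at 81.4%, Ctla4 at 79.8%, Cd274 at 79.5%, Cd86 at 78.4%, Pdcd1 at 77.9%, Cd28 at 77.5%, Icos at 77.1% and Havcr2 at 73.6%. Lag3 was lowest at 48.3 ± 1.28% (n = 7). The ranges of the Sham libraries overlapped between each pair of neighbours from Pdcd1lg2 to Icos in this order, whereas Tigit, Havcr2 and Lag3 did not overlap with their neighbours.

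The first question was how OVA challenge changed these genes in Sham offspring. Most member windows lost methylation, and the ligands Cd86 and Pdcd1lg2 showed the largest losses. At an adjusted p under 0.05 (limma, adjusted over 259167 tested windows), 36 of 59 windows were lower in Sham-OVA than in Sham and 6 were higher. These are 61.0% and 10.2% of the members, whereas 22.3% of all tested windows were lower and 13.3% higher. The median difference was -3.27 percentage points over the members and -0.414 over all tested windows. Differentially methylated regions (DMRs), defined as windows past that threshold that also differed by 10 or more percentage points, numbered 2 of 59, where 0.775% of all tested windows were DMRs. Without Sham replicate 1, 35 windows were lower, 6 were higher and 2 were DMRs, where 20.5% of all tested windows were lower and 0.751% DMRs, and without Sham-OVA replicate 7 there were 4 DMRs, where the share over all tested windows was 0.933%.

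In PM offspring most member windows were lower after OVA as well. Of the 59 windows, 42 were lower in PM-OVA than in PM and 4 were higher (71.2% and 6.78%), against 34.8% lower and 9.26% higher over all tested windows. The median difference was -3.71 percentage points over the members and -1.03 over all tested windows. There were again 2 DMRs, where 0.584% of all tested windows were DMRs. Sham replicate 1 does not enter this contrast except through the shared spread. Without it the counts were 42, 4 and 2, where 35.1% of all tested windows were lower and 0.584% were DMRs. There was 1 DMR without PM replicate 6, where 0.545% of all tested windows were DMRs. With each library centred on its own median shift, there was 1 DMR, 37 windows were lower and 7 were higher. Over all tested windows 18.7% were then lower and 0.66% were DMRs, and the share that were higher was not counted.

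No library is common to both contrasts. In both, 36 windows were lower and 4 were higher, and 0 were called in opposite directions. Over all tested windows these shares were 19.7%, 7.57% and 0.0177%. A further 6 were lower in PM alone and 2 higher in Sham alone, and 11 were called in neither. Over all tested windows 34.8% were lower in PM against 19.7% in both, and 13.3% were higher in Sham against 7.57% in both. Calls in 1 contrast alone were thus common over all windows too. The share called in neither was not counted. A call in 1 kind of offspring alone does not show a difference between them, which is tested further on. Every OVA library lay below every unchallenged library in 17 windows in Sham and 26 in PM, where 5.43% and 10.3% of all tested windows did so. Both held for 14 windows, and for 3.40% of all tested windows.

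**Figure D1:**
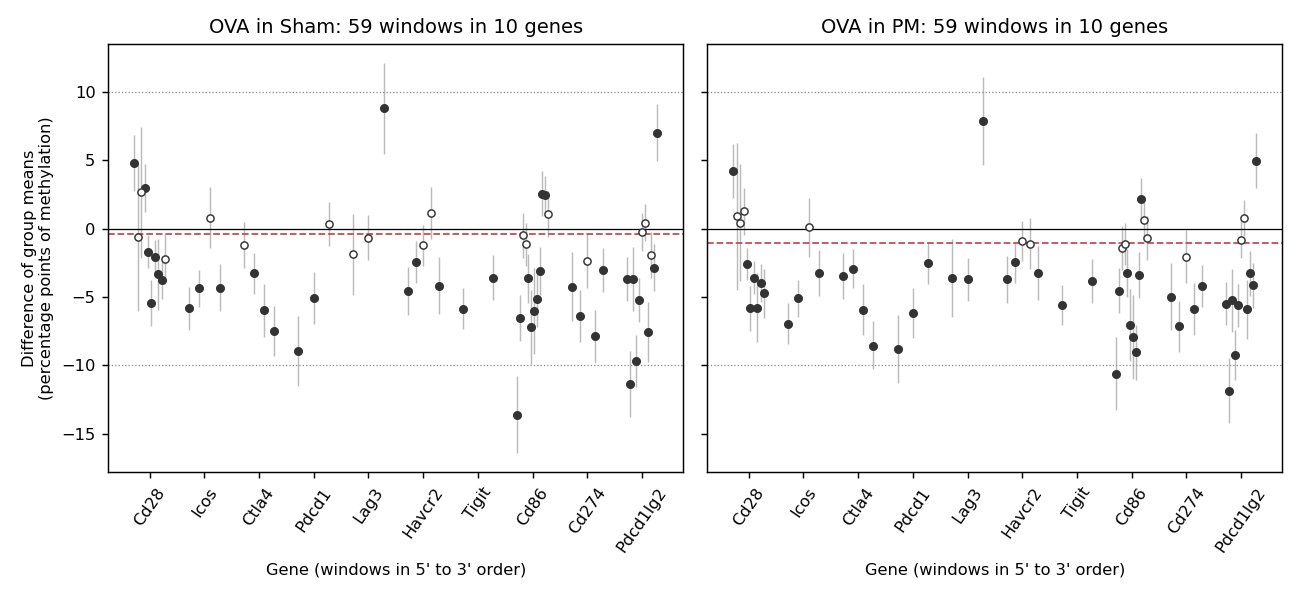
Difference of group means in percentage points for the 59 member windows, by gene, for OVA in Sham (left) and OVA in PM (right). Bars are 95% confidence intervals from limma on the percent scale, filled points have an adjusted p under 0.05, the dashed line is the median of all tested windows (-0.414 and -1.03) and dotted lines mark 10 percentage points. Most points lie below 0 in both panels, and the highest point in each is Lag3 window 3.

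The mean over the 59 windows was 77.2 ± 0.48% (n = 7) in Sham and 74.1 ± 0.923% (n = 7) in Sham-OVA. It was 77.5 ± 0.385% (n = 7) in PM and 73.9 ± 0.703% (n = 8) in PM-OVA. The libraries ranged from 76.4 to 77.7% in Sham, 72.5 to 75.3% in Sham-OVA, 76.9 to 77.9% in PM and 72.9 to 74.9% in PM-OVA. Thus no OVA library reached the level of an unchallenged one. The members lay 8.05 percentage points above the mean of all windows in Sham and 5.36 above it in Sham-OVA, and the values in PM and PM-OVA were 8.13 and 5.48.

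Among the ligands, 18 of 28 windows were lower after OVA in Sham and 3 were higher, and 19 were lower and 2 higher in PM. Over all tested windows 22.3% were lower and 13.3% higher in Sham, and 34.8% and 9.26% in PM. Cd86, the CD28 and CTLA-4 ligand of antigen-presenting cells, had its largest loss in the window that holds the gene start. Window 1 (chr16:36665844-36671129) holds the annotated start, 2000 bp of promoter and the first coding base. The window has only 238 of its 5286 bp in the gene and the rest upstream, so the loss cannot be placed at the start itself. Its lowest, median and highest values were 69.9, 75.9 and 79.9% in Sham, against 57.9, 61.8 and 63.7% in Sham-OVA. In PM they were 69.3, 71.7 and 76.9%, against 59.1, 62.9 and 64.5% in PM-OVA. The OVA and unchallenged libraries did not overlap in either kind of offspring. The mean fell in both, with differences of -13.6 percentage points in Sham (95% interval -16.4 to -10.8, limma adjusted p = 9.37e-08) and -10.6 in PM (-13.3 to -7.89, limma adjusted p = 1.41e-06). As log2 of the methylated over the unmethylated percent, the changes were -0.90 ± 0.10 and -0.69 ± 0.09 (SE). In PM the window was no longer a DMR when libraries were centred (difference -9.15) or without PM replicate 6 (difference -9.99).

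The loss in Cd86 was not even along the gene. Window 2 fell, with differences of -6.55 percentage points in Sham and -4.53 in PM, whereas windows 3 and 4 did not pass in either contrast. A second stretch of lower windows lay further in, from window 5 to window 9. Window 6 was at -7.20 and -7.04 and window 7 at -6.02 and -7.90 percentage points, while windows 5 and 9 differed by -3.64 and -3.11 in Sham and -3.24 and -3.37 in PM. Window 8 (chr16:36631448-36635186), which has no exonic bases, had 77.6, 79.6 and 84.6% (lowest, median, highest) in Sham and 71.1, 75.5 and 78.2% in Sham-OVA. In PM these were 77.3, 81.0 and 82.5% and in PM-OVA 69.5, 71.5 and 73.4%. The ranges overlapped in Sham and not in PM, and the differences were -5.13 and -9.06 percentage points (limma adjusted p = 3.1e-04 and 1.33e-07). Window 10 (chr16:36619173-36625831), which holds coding exons, rose by 2.57 and 2.16 percentage points (limma adjusted p = 0.0177 and 0.032). In all, 7 of the 12 Cd86 windows were lower in each contrast, where 22.3% and 34.8% of all tested windows were lower in Sham and PM. There were 2 higher in Sham and 1 in PM (16.7% and 8.33%), which is near the 13.3% and 9.26% of all tested windows.

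Pdcd1lg2, which encodes the PD-1 ligand PD-L2, held the other DMR. Window 2 (chr19:29418722-29422802) contains 380 exonic bases with the first coding base. It had 71.7, 72.4 and 74.9% (lowest, median, highest) in Sham and 57.1, 60.0 and 67.9% in Sham-OVA. In PM these were 70.9, 73.3 and 74.6% and in PM-OVA 57.7, 61.5 and 64.2%. Again the groups did not overlap, and the highest Sham-OVA value belonged to replicate 7. The differences were -11.4 percentage points in Sham (-13.8 to -8.95, limma adjusted p = 5.38e-08) and -11.9 in PM (-14.2 to -9.49, limma adjusted p = 9.98e-09).

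Window 4 of Pdcd1lg2 (chr19:29427291-29431632), which has no exonic bases, had the smallest p of all members in both contrasts. Sham stood at 81.1 ± 1.29% (n = 7) and Sham-OVA at 71.4 ± 2.84% (n = 7), and PM at 81.7 ± 1.08% (n = 7) and PM-OVA at 72.4 ± 1.58% (n = 8). The differences of -9.68 and -9.27 percentage points (limma adjusted p = 2.1e-08 and 9.74e-09) were just short of the 10 points asked of a DMR. Window 1, with the gene start, differed by -3.65 and -5.48 percentage points (limma adjusted p = 7.44e-04 and 1.99e-06). The last window of the gene went the other way. Window 11 (chr19:29467569-29472600), which also overlaps A930007I19Rik, rose by 7.04 percentage points in Sham and 4.97 in PM (limma adjusted p = 1.03e-05 and 4.12e-04). It was named after its values were seen.

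**Figure D2:**
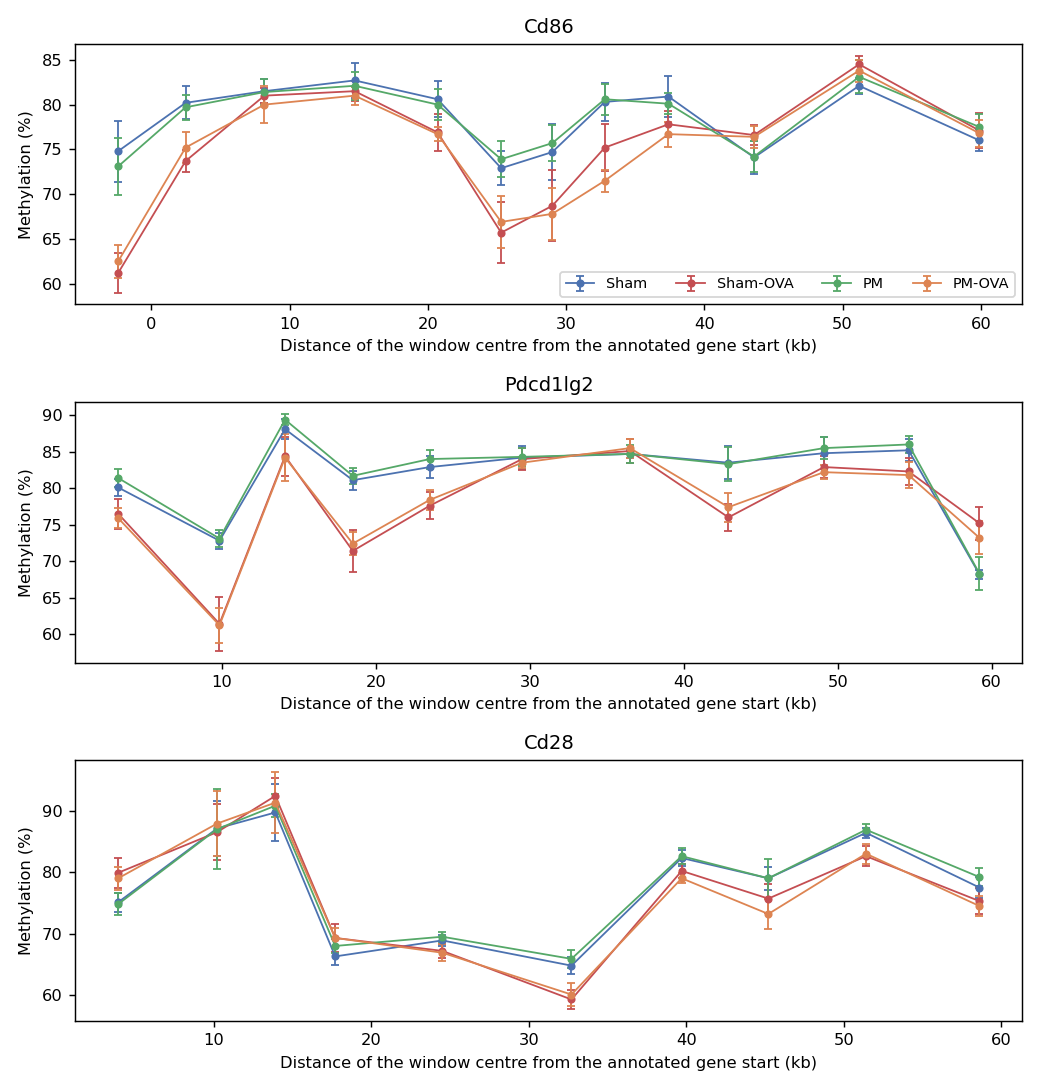
Methylation in percent against the distance of each window's centre from the annotated gene start in kb, for Cd86, Pdcd1lg2 and Cd28. Points are group means and bars the SD over libraries of the 4 groups. In Cd86 the OVA groups separate from the unchallenged groups at the start (61.2 and 62.5% against 74.8 and 73.1%) and again between 20 and 40 kb, and in Pdcd1lg2 they are furthest apart in window 2.

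Cd274, which encodes PD-L1, had 4 of 5 windows lower in each contrast, against 22.3% and 34.8% of all tested windows. Window 2 (chr19:29373984-29377289, intronic) had 86.1 to 91.1% in Sham and 79.3 to 85.5% in Sham-OVA, with no overlap. Its differences were -6.40 percentage points in Sham and -7.15 in PM (limma adjusted p = 8.69e-06 and 5.28e-07). Window 4 (chr19:29380624-29384370) was lower as well, by differences of -7.87 and -5.86 percentage points (limma adjusted p = 9.06e-07 and 2.46e-05). The RefSeq start of Cd274 (chr19, 29362107) lies upstream in no window named for Cd274. Its GENCODE start lies in a neighbouring window that the table names for Plgrkt (chr19:29367364-29371043) and that was not a member. This Plgrkt window was less methylated, at 38.5% in Sham and 29.7% in Sham-OVA, and at 39.1% in PM and 28.8% in PM-OVA. Its differences were -8.73 and -10.4 percentage points (limma adjusted p = 3.89e-07 and 1.15e-08).

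Of the 17 windows of the inhibitory receptors, 10 were lower after OVA in Sham and 14 in PM, and 1 was higher in each. The share of all tested windows that were lower also differed between these contrasts, at 22.3% and 34.8%. The largest losses were in Pdcd1 and Ctla4. Pdcd1 window 1 (chr1:94049268-94053825) holds the start of the gene for PD-1 and the promoter printed above. Its values were 70.1, 73.5 and 77.3% (lowest, median, highest) in Sham and 61.1, 63.9 and 72.2% in Sham-OVA. They were 71.7, 74.0 and 76.9% in PM and 62.4, 65.6 and 66.5% in PM-OVA. The PM groups did not overlap, whereas in Sham the ranges overlapped through Sham-OVA replicate 7. The window differed by -8.94 and -8.80 percentage points (limma adjusted p = 4.79e-06 and 2.06e-06).

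Ctla4 window 4 (chr1:60908936-60915907) holds the RefSeq start and all 669 coding bases that fall in member windows of the gene. It was 79.9 ± 2.10% (n = 7) in Sham and 72.4 ± 1.69% (n = 7) in Sham-OVA, and 80.2 ± 0.973% (n = 7) in PM and 71.7 ± 1.83% (n = 8) in PM-OVA. The groups did not overlap in either contrast, and the differences were -7.49 and -8.55 percentage points (limma adjusted p = 3.8e-07 and 2.46e-08). Window 1, at the 5′ end of the GENCODE gene, was -1.19 percentage points in Sham (limma adjusted p = 0.319) and fell by 3.45 in PM (limma adjusted p = 0.00201).

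Tigit, a receptor for nectin-family ligands, was lower in both of its windows, where 22.3% and 34.8% of all tested windows were lower in Sham and PM. Window 1 (chr16:43657501-43664227) fell without overlap of the groups, with differences of -5.84 and -5.58 percentage points (limma adjusted p = 5.93e-07 and 3.53e-07). Havcr2, which encodes TIM-3, had 3 of 5 windows lower in each contrast. Its window 1 (chr11:46453124-46458634), with the gene start, fell as well, with differences of -4.54 and -3.71 percentage points (limma adjusted p = 3.59e-04 and 0.0013).

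Lag3, whose product binds MHC class II, held the only window of the inhibitory receptors that was higher in both contrasts. This window 3 (chr6:124903952-124906598), at the 3′ end with 524 coding bases, rose after OVA. The values were 31.2, 33.5 and 34.3% in Sham against 38.9, 40.7 and 46.5% in Sham-OVA. They were 29.5, 33.8 and 40.7% in PM against 36.9, 41.9 and 48.2% in PM-OVA. The Sham groups were apart and the PM groups overlapped. The rise was 8.81 percentage points in Sham and 7.92 in PM (limma adjusted p = 1.29e-04 and 2.13e-04). The CpG-dense window 1 (chr6:124909918-124911775), with the GENCODE gene start but not the RefSeq start (chr6, 124912434), was 26.7% in Sham and 24.8% in Sham-OVA (limma adjusted p = 0.314), and 27.9% in PM and 24.3% in PM-OVA (limma adjusted p = 0.0352). The call in PM was lost when libraries were centred (limma adjusted p = 0.213) and without PM replicate 5 (0.109). Window 2 was -0.669 percentage points in Sham (limma adjusted p = 0.529) and fell by 3.71 in PM (limma adjusted p = 3.5e-04).

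**Figure D3:**
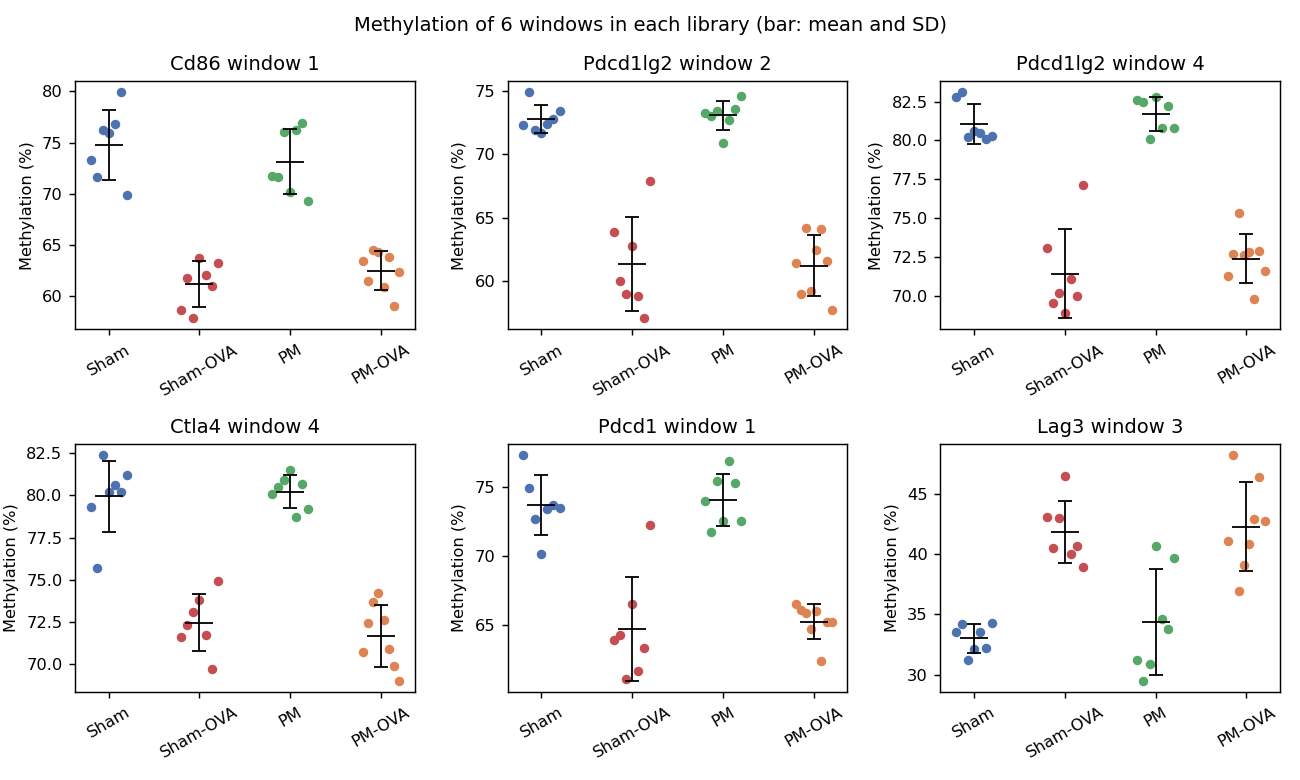
Methylation in percent of each library (points) in 6 windows, with the mean and SD of the 4 groups. In the Cd86, Pdcd1lg2 and Ctla4 windows every OVA library lies below every unchallenged library of the same maternal group, in Pdcd1 window 1 one Sham-OVA library at 72.2% lies within the Sham range, and in Lag3 window 3 the OVA groups are higher. The vertical axes do not start at 0.

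Of the 14 windows of the costimulatory receptors, 8 were lower in Sham and 9 in PM, against 22.3% and 34.8% of all tested windows. Of the 14, 2 and 1 were higher, which is close to the 13.3% and 9.26% of all tested windows. Icos window 1 (chr1:60975225-60983528) holds the GENCODE gene start and 2000 bp of promoter, whereas the RefSeq start lies upstream (chr1, 60960773) in no window named for Icos. Sham stood at 77.6 ± 1.45% (n = 7) and Sham-OVA at 71.8 ± 1.26% (n = 7), and PM at 79.1 ± 1.71% (n = 7) and PM-OVA at 72.2 ± 1.37% (n = 8). Neither pair of groups overlapped, and the differences were -5.82 and -6.95 percentage points (limma adjusted p = 4.56e-06 and 9.97e-08). Icos window 2, without exonic bases of Icos, fell too, with differences of -4.37 and -5.09 percentage points.

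Cd28 moved in both directions along its length. Window 6 (chr1:60745939-60753158), with the RefSeq start and the first coding base, fell without overlap, with differences of -5.43 percentage points in Sham and -5.83 in PM (limma adjusted p = 3.43e-05 and 5.38e-06). Window 1 (chr1:60716537-60724902), at the 5′ end of the GENCODE gene, holds no coding base and rose by 4.81 and 4.23 percentage points (limma adjusted p = 6.71e-04 and 0.0016). From window 5 to window 9 all were lower in both contrasts. In windows 2 and 3 neither contrast passed. Window 2 had no value in 1 PM-OVA library, and window 3 had values in 4 Sham-OVA libraries and in 6 of each other group.

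The losses were compared with the position of the windows, a comparison made after the values were seen. The window with the first coding base was lower in 9 of 10 genes in Sham and in 10 of 10 in PM, with medians of -5.83 and -6.39 percentage points. The count in PM includes Lag3 window 1, whose call was lost on centring. Over all genes, 14.2% and 23.3% of 18067 such windows were lower, with medians of -0.0454 and -0.270. The member windows of this kind had means from 26.7 to 86% in Sham. None of the shares given here was matched to the members by starting level, which limits how far a window can fall. Of the other 49 member windows, 27 and 32 were lower, with medians of -2.44 and -3.27, where 22.0% and 34.0% of the other windows of those genes were lower. Of the 16 windows without exonic bases 11 and 12 were lower, against 26.3% and 40.9% of all such windows, and of the 43 with exonic bases 25 and 30, against 19.5% and 30.6%. Of the 9 windows with promoter bases, 6 were lower in Sham and 8 in PM, against 19.1% and 31.2%.

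The second question was whether maternal PM2.5 changed these genes. No member window was a DMR between PM and Sham, between PM-OVA and Sham-OVA, or in the interaction (limma), and the share of DMRs over all tested windows was 0% in each. Without Sham replicate 1 there were again 0 member DMRs in each of the 3 comparisons. At an unadjusted p under 0.05, 1, 3 and 3 of the 59 windows passed, where 5.79%, 5.96% and 7.40% of all tested windows did. The smallest adjusted p among the members was 0.86, 0.805 and 0.594. The differences ranged from -1.68 to 1.68 percentage points without OVA and from -3.61 to 1.51 with OVA.

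The windows with the smallest p are given for description. Without OVA this was Ctla4 window 2, at 89.0% in Sham and 87.7% in PM (difference -1.30, interval -2.78 to 0.176, limma adjusted p = 0.86). With OVA it was Pdcd1 window 3, at 83.7% in Sham-OVA and 81.1% in PM-OVA (difference -2.64, -4.20 to -1.09, limma adjusted p = 0.805). For the interaction it was Lag3 window 2, where the OVA difference in PM was 3.04 percentage points below that in Sham (difference -3.04, -5.33 to -0.745, limma adjusted p = 0.594). By size, the largest difference with OVA and the largest interaction among the members were both at Cd86 window 8. It was -3.61 percentage points between PM-OVA and Sham-OVA (-5.61 to -1.60, limma adjusted p = 0.816), and the interaction was -3.93 (-6.81 to -1.05, limma adjusted p = 0.621). At Cd86 window 1 the interaction was 2.95 percentage points (-0.963 to 6.87, limma adjusted p = 0.752) and at Pdcd1lg2 window 2 it was -0.468 (-3.88 to 2.94, limma adjusted p = 0.958).

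Other genes of the pathway, listed with the members, gave 184 windows in 30 of 35 genes. OVA lowered 56 and raised 20 in Sham, and lowered 74 and raised 14 in PM. As shares these were 30.4% and 40.2% lower, against 22.3% and 34.8% of all tested windows, and 10.9% and 7.61% higher, against 13.3% and 9.26%. The median differences were -0.564 and -1.32 percentage points, against -0.414 and -1.03 over all tested windows. DMRs numbered 7 in Sham and 6 in PM, all lower, where 0.775% and 0.584% of all tested windows were DMRs in either direction. They included Cd80, the other CD28 ligand, at 74.6% in Sham and 60.1% in Sham-OVA, and Tnfsf4, the OX40 ligand, at 48.1% and 31.6%. Cd200r1, an inhibitory receptor of myeloid cells, went from 65.7 to 45.9%.

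Markers of cell types are given beside the members, and over all tested windows 22.3% were lower and 13.3% higher in Sham and 34.8% and 9.26% in PM, with median differences of -0.414 and -1.03 percentage points. T cell markers had 34.7% of windows lower and 14.9% higher in Sham (35 and 15 windows) and 39.6% and 9.90% in PM (40 and 10), and their mean per library was 70.6 to 71.9% in Sham, 69.5 to 70.8% in Sham-OVA, 71.0 to 72.3% in PM and 69.5 to 70.7% in PM-OVA. Eosinophil markers had 9 of 16 lower in Sham and 10 in PM, with 0 higher, and means of 68.6 to 70.7%, 65.5 to 67.6%, 69.3 to 71.4% and 65.5 to 66.9% in the same order of groups. Markers of myeloid antigen-presenting cells had 19 of 59 lower and 8 higher in Sham and 25 and 3 in PM, with means of 68.6 to 69.6%, 67.6 to 69.4%, 69.2 to 70.6% and 67.6 to 68.2%. B cell markers had 17 of 68 lower and 18 higher in Sham and 22 and 15 in PM, with means of 63.1 to 64.4%, 62.3 to 64.2%, 63.7 to 64.8% and 62.0 to 63.5%. Markers of lung epithelium and endothelium had 36 of 79 higher and 6 lower in Sham and 25 and 8 in PM, with means of 63.4 to 65.7%, 65.8 to 67.8%, 63.5 to 66.5% and 65.3 to 67.3%. The median differences in Sham and PM were -0.743 and -1.09 for T cells, -4.35 and -4.01 for eosinophils, -0.204 and -1.50 for myeloid antigen-presenting cells, 0.147 and -0.0875 for B cells and 2.28 and 1.15 for lung epithelium and endothelium. Their part in the losses at the member genes was not tested.

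**Figure D4:**
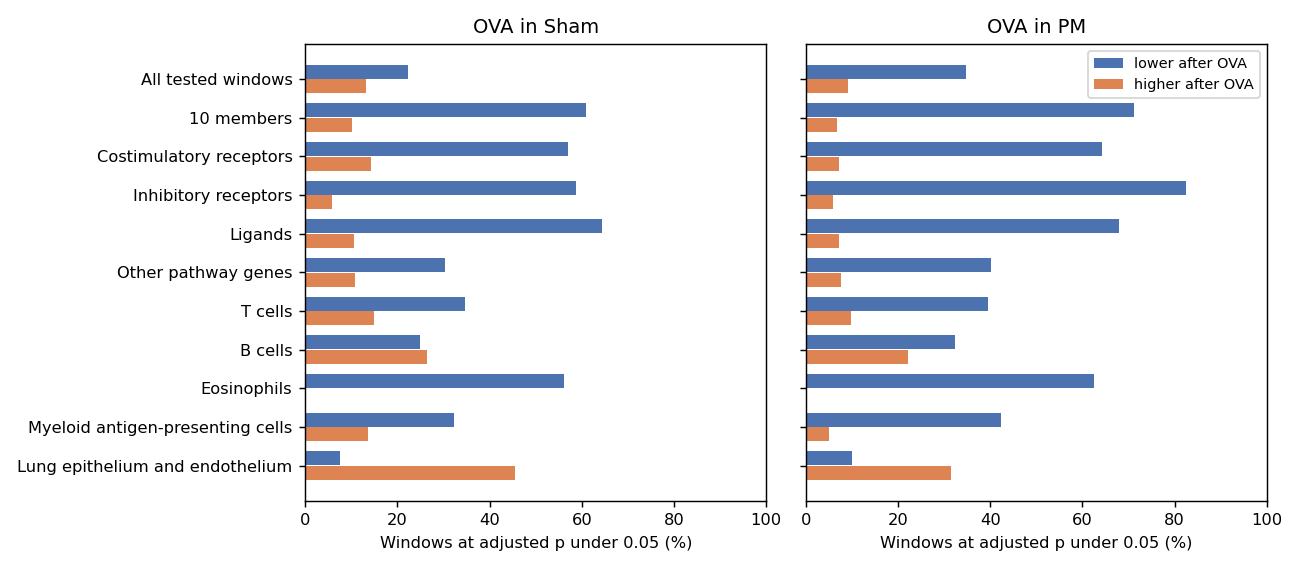
Percentage of windows with an adjusted p under 0.05 (limma) that were lower (blue) or higher (orange) after OVA, in Sham (left) and PM (right), for all tested windows, the members, their roles, other pathway genes and cell type markers. The members were lower in 61.0% and 71.2% of windows against 22.3% and 34.8% of all tested windows, and the lung epithelium and endothelium markers were higher in 45.6% and 31.6%.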

How the data were processed

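DNA was extracted from lung, converted enzymatically and sequenced by the study. Per the labels and methods, the authors trimmed reads with Trim Galore and used the DRAGEN methylation pipeline against GRCm38 to call methylation. They then computed a percent of methylated calls per window of 100 CpG cytosines in SeqMonk. The deposited percent values carry no coverage and no normalisation between libraries is described, so a global shift between libraries stays in them. No count model was used.

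Percentages were put on a log2 scale, as the methylated over the unmethylated percent with 1 percentage point added to each, and fitted over 29 libraries in 4 groups with limma (version 3.58.1, R 4.3.3), with Benjamini-Hochberg adjustment over 259167 windows having at least 3 values per group (1519 were removed). Tests were 2-sided. The DMR thresholds were 0.05 for the adjusted p and 10 percentage points for the difference of group means. The code was tested on simulated data. Exons and promoters (2000 bp) came from GENCODE M21, and promoter sequences (6 of 10 members matched) from RefSeq on GRCm38.p6, read with pysam 0.24.0. Named windows were DMRs, gene starts, the smallest p per gene and, over the members, the smallest p in each comparison involving maternal exposure. Other windows described, among them Cd86 windows 2, 5 to 7, 9 and 10 and Icos window 2, were picked after their values were seen. Members, lists and tests were chosen with earlier results of these data known. Whether replicates came from separate litters is not given in the sources used here, so p-values measure the spread between these libraries. Replicate numbers, taken from the sample titles and in part unlike those in the library names, were shared between groups but did not pair the libraries.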

Additional observations from a re-analysis of the deposited data

Results flagged for a closer look

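In 6 of 80 sets of libraries (a named window in a group), 1 library lay far from the others by Dixon's criterion at the 95% level, which chance alone gives in about 1 in 20 sets. PM-OVA replicate 7 was high in Cd28 window 1 (83.2%, next 79.6%), high in Lag3 window 1 (30.7%, next 24.8%) and low in Pdcd1lg2 window 1 (72.8%, next 75.6%). PM-OVA replicate 6 was low in Pdcd1 window 1 (62.4%, next 64.7%). Sham replicate 5 was high in Lag3 window 1 (32.1%, next 27.3%), and Sham replicate 1 was low in Havcr2 window 1 (60.5%, next 63.0%).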

How the results depend on the processing

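No named window changed direction with a call in any alternative run, and the coverage of each window, which is not in the table, limits every single value. Centring each library on its median shift left 33 member windows lower in Sham and 37 in PM, with 6 and 7 higher and member medians of -2.87 and -2.51 percentage points, where 17.8% and 18.7% of all tested windows were then lower. The share of all tested windows that were higher after centring was not counted. Member DMRs in PM were then 1, since Cd86 window 1 stood at -9.15 percentage points, where 0.66% of all tested windows were DMRs. In Sham they were 2, where 0.846% were DMRs. With a minimum difference of 5 points, member DMRs were 20 in Sham and 22 in PM, where 5.96% and 5.89% of all tested windows were DMRs. With an adjusted p under 0.000001, 1 member DMR was left in PM and 2 in Sham, where 0.355% and 0.398% of all tested windows were. Leaving out each library in turn gave 2 to 4 member DMRs in Sham (4 without Sham-OVA replicate 7, adding Pdcd1 window 1 at -10.2 and Pdcd1lg2 window 4 at -10.6) and 1 to 2 in PM (1 without PM replicate 6, with Cd86 window 1 at -9.99), where 0.684 to 0.933% and 0.527 to 0.669% of all tested windows were DMRs. It gave 33 to 37 windows lower in Sham and 41 to 43 in PM, where 19 to 23.6% and 31 to 35.6% of all tested windows were lower.

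With the replicate block, 35 windows were lower in Sham and 42 in PM, with 2 DMRs each, where 22.6% and 32.9% of all tested windows were lower and 0.780% and 0.584% DMRs. Deviations of libraries with the same number in their titles correlated between -0.034 and 0.0563, with 0 of 7 pairs over 0.1 in Sham and in PM and 2 of 7 closest to their own number, so the numbers were not taken as pairs. Of 36 calls in named windows, each under 8 other settings, 3 of 288 values lost the call. These were Pdcd1 window 3 in PM when centred (adjusted p = 0.0792) and Lag3 window 1 in PM when centred (0.213) or fitted on its own 2 groups (0.05). On leaving out a library, 7 of 1044 values lost the call, all Lag3 window 1 in PM (adjusted p from 0.05 to 0.109). Many named windows were chosen for the smallest p of their gene, so these figures leave out calls nearer the threshold. Cd28 windows 5 and 8 in Sham are examples (limma adjusted p = 0.0471 and 0.0492). Over all members, centring took the lower windows from 36 to 33 in Sham and from 42 to 37 in PM.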
